A study of Mus musculus with 6 samples.

Results

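The genes described here are 9 markers of the club and ciliated cells of the airway, out of 47729 genes counted. They were chosen by name. Scgb1a1, Scgb3a1, Scgb3a2, Cyp2f2 and Cbr2 form the secretory set of 5, and Foxj1, Tppp3, Dynlrb2 and Sec14l3 the ciliated set of 4. Their levels were read in polyA RNA-seq libraries of lung endothelial cells (ECs), 3 from wild-type (WT) mice and 3 from leene-KO mice. All mice were 14-week-old males on normal chow that received angiotensin II (AngII) at 1000 ng/kg/min from an osmotic pump for 2 weeks, so the WT libraries are also AngII libraries and no untreated group was compared. The KO mice, on a C57BL6 background, lack a region deleted with CRISPR-Cas9 that encodes 3 lncRNAs, among them Gm41148, the putative mouse homolog of human LEENE. By qPCR of heart and aorta the study found Gm41148 strongly reduced in KO mice, and the other lncRNAs of the region not significantly different. The lncRNAs of the region are not in the counted annotation, and the genotype could not be checked in the counts. The deletion was not limited to ECs by any promoter or Cre. The sample labels describe the cells as enriched by CD31, whereas the study's methods describe magnetic sorting by CD144. The labels also state that cells of 3 mice per group were pooled, so n below counts libraries, and p-values measure the spread between libraries, which may be technical.

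Club cells are secretory cells of the bronchioles. They release secretoglobins into the airway lining fluid, carry cytochromes P450 that metabolise inhaled compounds, and can act as progenitors of ciliated cells. Ciliated cells carry bundles of motile cilia that move mucus, and they build them under a transcriptional program led by Foxj1 and the RFX factors. Neither cell type belongs to the endothelium.

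Total counts lay between 24464324 and 35184063 per library, and mitochondrial genes took 37.4 to 54.5% of them. Levels are given as CPM, the counts of a gene per 1000000 counts of its library, with library sizes scaled by the TMM method. The TMM factor was 1.374 in WT replicate 1 and 0.8735 to 1.036 in the other libraries. This lowered the CPM of WT replicate 1 relative to scaling by total counts. The 12 endothelial markers that were listed (such as Pecam1, Cdh5 and Kdr) were all detected, and their summed level was 2140 to 3878 CPM in WT and 2417 to 3917 CPM in KO. The WT libraries differed strongly among themselves. The summed level of 10 alveolar type II markers (such as Sftpc and Lamp3) was 5633, 52860 and 16310 CPM in WT replicates 1, 2 and 3, against 41690, 50800 and 41310 CPM in KO, and it was 9.38 times as high in WT replicate 2 as in WT replicate 1. Without WT replicate 2, edgeR's calls over all genes went from 16 to 791. In bulk libraries, more cells of a type and more RNA per cell cannot be told apart.

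The first question was how much airway cell RNA the EC libraries held. The 5 secretory members together had 16260, 42360 and 21350 CPM in WT and 35550, 59610 and 37200 CPM in KO, which is 1.63 to 5.96% of the scaled reads of a library. By reads, without regard to gene length, this was 5.51 to 24.7 times the sum of the 12 endothelial markers in the same library. Scgb1a1 ranked 8 and Cyp2f2 ranked 12 among all genes by mean CPM. The 4 ciliated members together had 480.5, 361.3 and 309.7 CPM in WT and 239.5, 444.8 and 260.0 CPM in KO. Most of this sum was Sec14l3 alone, at 377.4, 248.4 and 204.8 CPM in WT and 142.8, 316.1 and 156.9 CPM in KO. None of the 9 members was at 0 in any library, and the smallest count behind any value was 140, for Dynlrb2 in WT replicate 3.

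Per kilobase of exon, the members kept one order in all 6 libraries. Scgb1a1 led at a mean of 42520 CPM per kb, followed by Cyp2f2 at 6095, Scgb3a1 at 2034, Scgb3a2 at 1158 and Cbr2 at 430.7 CPM per kb. Below them came Sec14l3 at 86.6, Tppp3 at 44.6, Dynlrb2 at 16.3 and Foxj1 at 6.75 CPM per kb. The closest neighbours were Sec14l3 and Tppp3, whose per-kb levels differed by 1.25 to 2.99 times within a library, and Scgb3a1 and Scgb3a2, which differed by 1.37 to 2.16 times. Over the 6 libraries, adjacent per-kb ranges overlapped among Cyp2f2 (2582 to 10650 CPM per kb), Scgb3a1 (912.7 to 3248), Scgb3a2 (667.2 to 1698) and Cbr2 (272.3 to 679.9), and between Sec14l3 (51.3 to 135.6) and Tppp3 (38.6 to 51.6). The ranges of these neighbours thus overlapped between libraries, while their order held within each library. There Cyp2f2 exceeded Scgb3a1 by 1.53 to 4.08 times, and Scgb3a2 exceeded Cbr2 by 2.42 to 3.12 times. Every secretory member thus stood above every ciliated member, and Foxj1, the transcription factor, was the least abundant.

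The second question was whether these levels differed between KO and WT. All 9 members passed the filter on low counts, and 0 of the 9 had an adjusted p under 0.05 in the quasi-likelihood test of edgeR (Benjamini-Hochberg, 14625 genes), where 0.109% of all genes were called, 0.0342% as higher and 0.0752% as lower in KO. The same test called 0 members at an unadjusted p under 0.05, which 10.3% of all genes had. DESeq2 called 0 after adjustment (1.21% of genes) and 1, Scgb1a1, before it (6.49%). With limma-voom 0 were called after adjustment (0.178% of genes) and 0 before it (11.6%). Nor did the KO and WT libraries separate for any member, whereas they did for 17.8% of all genes (KO above WT in 8.59% and below in 9.20%). The log2 fold change (KO minus WT) was positive for 7 members and negative for 2, against 54.1% positive among all genes, and for Tppp3 the sign turned with total-count scaling.

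The median log2 fold change was 0.59 in the secretory set and 0.00 in the ciliated set, beside 0.03 over all genes tested. The secretory median ranged from 0.31 without KO replicate 2 to 0.85 without WT replicate 2, and no member was called in any of 15 alternative settings.

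**Figure D1:**
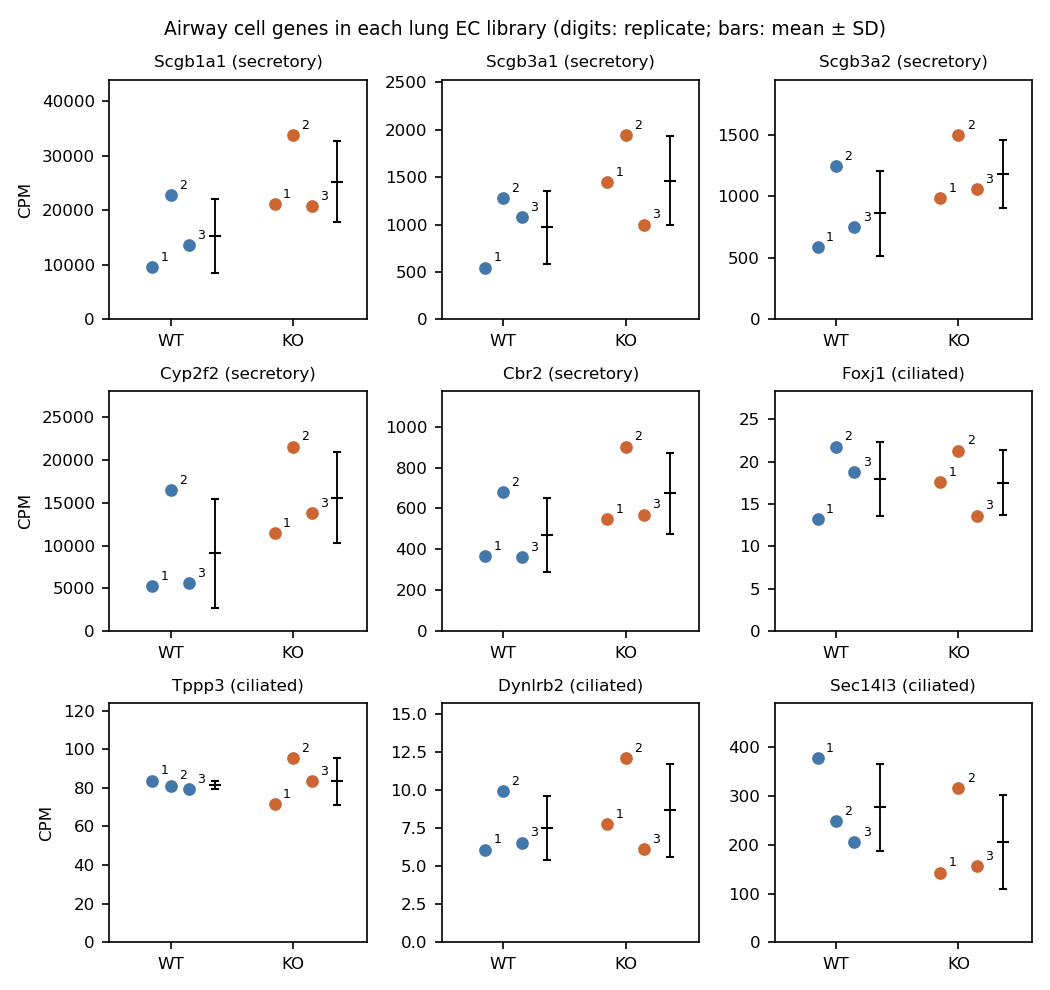
Levels of the 9 members in each library, in CPM on a linear axis from 0 (points, blue for WT and orange for KO, numbered by replicate; bars, mean ± SD of the 3 libraries). For the 5 secretory genes KO replicate 2 was the highest library, and for every gene the WT and KO points overlap.

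Scgb1a1 (ENSMUSG00000024653, GRCm38 chr19:9083636-9087958, minus strand, 476 exon bases) encodes uteroglobin, the main secreted protein of club cells. It had 9534, 22710 and 13560 CPM in WT replicates 1, 2 and 3 and 21170, 33710 and 20760 CPM in KO replicates 1, 2 and 3. WT replicate 2 stood above the lower pair of KO libraries, so the groups overlapped, while WT replicates 1 and 3 stood below all KO libraries. The group means were 15270 ± 6753 and 25210 ± 7358 CPM (SD, n = 3 libraries each), a log2 fold change of 0.72 (SE 0.56, 95% CI -0.57 to 2.02) with an adjusted p of 0.646 by edgeR. The interval admits both a lower level in KO and one several times as high.

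Cyp2f2 (chr7:27119909-27133660, plus strand) is the club cell cytochrome P450 known for activating naphthalene. Its level was 5228, 16450 and 5602 CPM in WT and 11410, 21570 and 13810 CPM in KO. Here WT replicate 2 exceeded KO replicates 1 and 3 and was 3.15 times as high as WT replicate 1, the widest gap between those 2 libraries among the members. The log2 fold change was 0.78 (SE 0.60, 95% CI -0.62 to 2.17, adjusted p = 0.647 by edgeR), and it was 1.49 with an adjusted p of 0.101 when WT replicate 2 was left out. The gene Gm15883 overlaps it on the opposite strand, and reads were counted by strand.

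Scgb3a1 (chr11:49663610-49665118, plus strand) is a secretoglobin of the conducting airways. WT replicates 1, 2 and 3 held 545.8, 1282 and 1082 CPM, and KO replicates 1, 2 and 3 held 1444, 1942 and 1000 CPM. KO replicate 3 lay below WT replicates 2 and 3, so this gene was the only secretory member for which WT replicate 3 passed any KO library. Its log2 fold change was 0.59 (SE 0.39, adjusted p = 0.61 by edgeR).

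Scgb3a2, a secretoglobin of bronchiolar cells, had 587.1, 1244 and 746.6 CPM in WT and 982.6, 1494 and 1059 CPM in KO. WT replicate 2 again lay between the KO libraries, and the other WT libraries lay below them. It had a log2 fold change of 0.46 (SE 0.34, adjusted p = 0.639 by edgeR).

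Cbr2 (chr11:120729489-120732114, minus strand), a carbonyl reductase abundant in club cells, had 366.2, 681.7 and 361.4 CPM in WT and 548.2, 902.2 and 569.4 CPM in KO. The pattern was that of Scgb3a2, with WT replicate 2 between the KO libraries and the other WT libraries below. Its log2 fold change of 0.52 (SE 0.33, 95% CI -0.25 to 1.29) had an adjusted p of 0.602 by edgeR, the lowest among the 9 members. The secretory genes followed the alveolar type II sum in that WT replicate 1 was low and WT replicate 2 high in both, and the part of alveolar cells in these values was not tested. For Scgb1a1, Cyp2f2 and Scgb3a2 the order of WT replicates 1 and 3 depended on the TMM scaling. Scgb1a1 had 389467 of 29744498 total counts in WT replicate 1 and a lower share, 289595 of 24464324, in WT replicate 3.

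The promoter of Scgb3a1 is shown because, of the 3 secretory members in the promoter table, it alone held a match to the NKX2-1 motif. It is RefSeq sequence of GRCm38.p6 from chr11:49663345-49663564 on the plus strand, covering 250 to 31 bases before the annotated start, 5′ to 3′. Capitals mark CTTGAG, the reverse complement of the NKX2-1 motif CTCAAG, and AAACA, the reverse complement of the forkhead core TGTTT.
Scgb3a1: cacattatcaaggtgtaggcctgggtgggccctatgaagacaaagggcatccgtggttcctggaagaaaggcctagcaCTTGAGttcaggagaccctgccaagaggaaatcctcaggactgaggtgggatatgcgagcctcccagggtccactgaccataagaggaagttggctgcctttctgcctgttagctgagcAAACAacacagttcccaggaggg
The NKX2-1 letters begin 172 bases before the start and occur on either strand in 12.1% of 32851 promoter windows of this length, and the forkhead letters begin 53 bases before it and occur in 43.4% of them. The promoter table matched 5 of the 9 members. Among these, the windows of Cyp2f2 and Cbr2 held no CTCAAG, and none of the 5 held the C/EBP letters TTGCNNAA (8.78% of windows) or TATAAA (9.95%). Such matches describe the letters only.

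Foxj1 (chr11:116330704-116335399, minus strand), the forkhead factor that directs motile cilium formation, had 13.2, 21.8 and 18.8 CPM in WT and 17.6, 21.3 and 13.6 CPM in KO, from 395 to 741 counts per library. With TMM scaling its highest and lowest libraries were both WT, and the KO libraries lay between them. By share of total counts KO replicate 3 was instead the lowest, with 395 of 27993484 against 538 of 29744498 in WT replicate 1. Group means were 17.9 ± 4.36 and 17.5 ± 3.84 CPM (SD, n = 3), with a log2 fold change of -0.03 (SE 0.23, 95% CI -0.57 to 0.51, adjusted p = 0.969 by edgeR).

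Tppp3 (chr8:105467493-105471526, minus strand) encodes a tubulin polymerization-promoting protein that is also known from some stromal cells. It had 83.8, 81.2 and 79.5 CPM in WT and 71.4, 95.3 and 83.3 CPM in KO. With TMM scaling the 3 WT libraries were nearly level and lay inside the KO range. On that scale the ratio between its highest and lowest library was 1.34, the smallest of the 9 members. Both statements depended on the scaling. By share of total counts WT replicate 1 was the highest library, with 3423 of 29744498 against 2591 of 29189294 in KO replicate 2. The log2 fold change of Tppp3 was 0.03 (SE 0.14, 95% CI -0.30 to 0.37, adjusted p = 0.949 by edgeR).

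Dynlrb2 (chr8:116505015-116515896, plus strand), a light chain of dynein, had 6.10, 9.95 and 6.56 CPM in WT and 7.78, 12.1 and 6.14 CPM in KO. KO replicate 2 and WT replicate 2 were high, and the lowest libraries of both groups were nearly equal. Its log2 fold change was 0.20 (SE 0.30, adjusted p = 0.815 by edgeR), and it was -0.14 without KO replicate 2.

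Sec14l3 (chr11:4064841-4077736, plus strand) belongs to the Sec14-like lipid-binding proteins and was listed here as a ciliated marker. It had 377.4, 248.4 and 204.8 CPM in WT and 142.8, 316.1 and 156.9 CPM in KO. WT replicate 1, the lowest library for 6 of the other members with TMM scaling, was the highest library here. KO replicate 2 stood apart from the other KO libraries. For Scgb1a1, Cyp2f2, Scgb3a2, Foxj1 and Dynlrb2 that lowest place depended on the TMM scaling. Dynlrb2 had 249 of 29744498 total counts in WT replicate 1 and a lower share, 140 of 24464324, in WT replicate 3. Unlike Sec14l3, the sum of 50 axoneme genes, given below, was lowest in WT replicate 1 with TMM scaling, at 138.4 CPM. Whether the Sec14l3 reads came from ciliated cells was not tested. The log2 fold change was -0.43 (SE 0.36, 95% CI -1.27 to 0.40, adjusted p = 0.672 by edgeR), and it ranged from -0.92 without KO replicate 2 to -0.15 without WT replicate 1.

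The upstream sequences of Dynlrb2 and Sec14l3, the 2 ciliated members in the promoter table, are shown beside each other because their levels followed different patterns across libraries. Both are RefSeq sequence of GRCm38.p6 on the plus strand, from chr8:116504765-116504984 and chr11:4064603-4064822, and cover 250 to 31 bases before the start. Capitals mark AAACA, the reverse complement of the forkhead core, in both, and, in Dynlrb2, the RFX half-site GTTGCC facing GCAAC after 2 bases.
Dynlrb2: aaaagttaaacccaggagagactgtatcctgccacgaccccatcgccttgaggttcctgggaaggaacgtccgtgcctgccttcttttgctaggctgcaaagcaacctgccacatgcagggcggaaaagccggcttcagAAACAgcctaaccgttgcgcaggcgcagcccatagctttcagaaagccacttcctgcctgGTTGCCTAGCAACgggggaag
Sec14l3: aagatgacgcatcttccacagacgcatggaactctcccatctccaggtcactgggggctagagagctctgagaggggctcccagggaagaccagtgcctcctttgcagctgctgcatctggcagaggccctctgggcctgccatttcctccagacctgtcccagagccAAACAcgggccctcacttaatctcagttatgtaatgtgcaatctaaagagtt
The half-site GTTGCC occurs in 8.96% of the 32851 windows and the facing pair GTTGCC, any 2 bases and GCAAC, a pattern written down after the Dynlrb2 sequence had been seen, in 0.0822%. In Dynlrb2 the pair begins 51 bases before the start, and Sec14l3 holds neither pattern in this window. The forkhead core, present in 43.4% of windows, begins 111 bases before the start of Dynlrb2 and 82 bases before that of Sec14l3. Dynlrb2 also holds the NKX2-1 letters, 204 bases before its start, which are left in lower case.

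Each member's log2 CPM was then centred on its own mean over the 6 libraries, and pairs were compared by the root mean square (RMS) difference of these profiles. The 10 secretory pairs had a median RMS difference of 0.27 (0.12 for Scgb3a2 and Cbr2 to 0.48 for Scgb3a1 and Cyp2f2). The 6 ciliated pairs had a median of 0.38, from 0.20 for Foxj1 and Dynlrb2 to 0.57 for Foxj1 and Sec14l3. The 20 mixed pairs had a median of 0.49, with Cbr2 and Dynlrb2 nearest at 0.24 and Cyp2f2 and Sec14l3 farthest at 0.97. Dynlrb2 thus lay about as near to Cbr2 as to Foxj1, and the 3 widest mixed pairs all held Sec14l3.

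**Figure D2:**
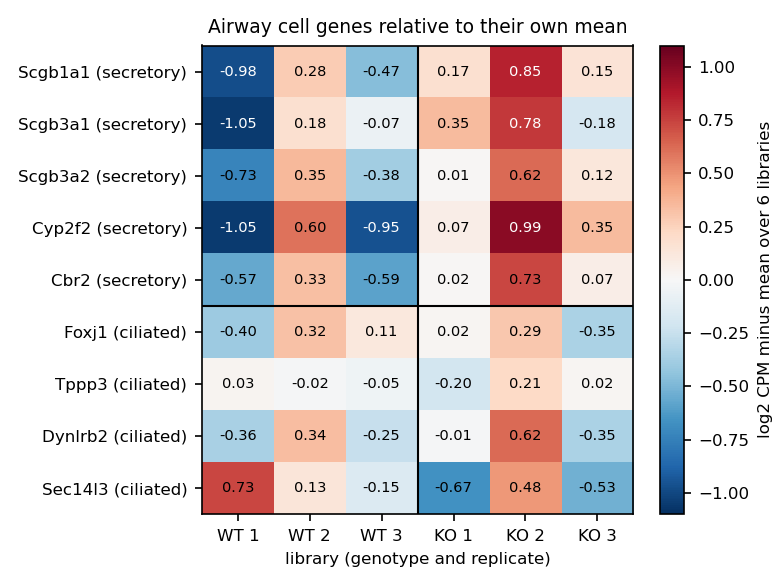
Level of each member (vertical axis) in each library (horizontal axis) as log2 CPM minus the member's mean over the 6 libraries, red above and blue below it. The 5 secretory genes were at -0.57 or lower in WT replicate 1 and at 0.62 or higher in KO replicate 2, whereas Sec14l3 was at 0.73 in WT replicate 1.

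The secretory and ciliated sets were next compared within each library, which removes any factor common to both sets. The mean log2 CPM of the secretory members exceeded that of the ciliated members by 5.15, 6.18 and 5.62 in WT replicates 1, 2 and 3 and by 6.37, 6.42 and 6.43 in KO replicates 1, 2 and 3. The KO libraries were close together and above all WT libraries, of which WT replicate 2 came nearest. The means were 5.65 ± 0.52 and 6.41 ± 0.03 (SD, n = 3), a difference of 0.76 on the log2 scale. No p is given, since the members were chosen with earlier results known.

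Most of this difference lay in the secretory set, whose mean log2 CPM was 11.01 ± 0.63 in WT and 11.69 ± 0.39 in KO, while that of the ciliated set was 5.36 ± 0.14 and 5.29 ± 0.38. Leaving out 1 library at a time, the difference ranged from 0.51 without WT replicate 1 to 1.02 without WT replicate 2. Without Sec14l3, an alternative chosen after seeing the data, it was 6.23, 6.99 and 6.43 in WT and 7.05, 7.28 and 7.19 in KO, a difference of 0.62, and the groups again did not overlap. With 50 axoneme genes in place of the ciliated members, also chosen after seeing the data, it was 9.21, 9.66 and 9.25 in WT and 9.62, 9.93 and 9.97 in KO, a difference of 0.46. There KO replicate 1 lay below WT replicate 2, so the separation of the groups did not hold against the axoneme genes.

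Beside this, the ratio of the secretory sum to the alveolar type II sum was 2.89, 0.801 and 1.31 in WT and 0.853, 1.17 and 0.901 in KO. WT replicate 1 thus held the fewest alveolar type II reads and had the highest ratio. The ratio of the ciliated sum to the alveolar type II sum was 0.0853 in WT replicate 1 and between 0.00575 and 0.0190 in the other libraries. Sec14l3 made up most of that ciliated sum in every library. The part that cell makeup had in the secretory-minus-ciliated difference was not tested.

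**Figure D3:**
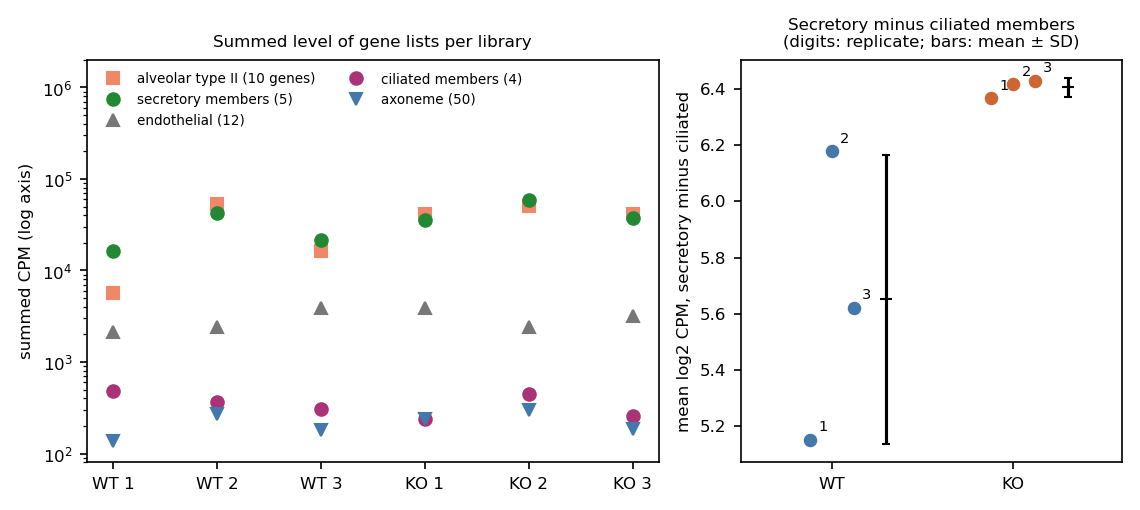
Left, summed CPM per library (log axis) of the secretory and ciliated members and of alveolar type II, endothelial and axoneme genes. Right, mean log2 CPM of secretory minus ciliated members (points, numbered by replicate; bars, mean ± SD; the axis does not start at 0), with the KO libraries at 6.37 to 6.43 and the WT libraries at 5.15 to 6.18.

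Other genes of club cells were taken from a list of 20, of which 19 passed the filter. Of these 0 were called by edgeR's quasi-likelihood test after adjustment, and 4 had an unadjusted p under 0.05 (10.3% of all genes did). In 4 of the 19 all KO libraries lay above all WT libraries, against 8.59% of all genes, and in 0 did they lie below. The log2 fold change was positive for 18 and the median was 0.58, with values from -0.01 for Aldh1a1, a retinaldehyde dehydrogenase, to 1.51 for Cyp2a5. The median was 0.33 without KO replicate 2 and 0.92 without WT replicate 2. The summed level of the list was 7429, 16170 and 8218 CPM in WT and 16070, 24310 and 15020 CPM in KO, so that WT replicate 2 again fell among the KO libraries.

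Cyp2a5, a cytochrome P450 of airway and liver, had 83.7, 150.2 and 60.2 CPM in WT and 206.7, 408.8 and 222.3 CPM in KO, with all KO libraries above all WT libraries. Its log2 fold change was 1.51 (SE 0.40) with an adjusted p of 0.303 by edgeR, while DESeq2 called it with an adjusted p of 0.00869. Its adjusted p ranged from 0.00796 with no filter on low counts to 0.696 without KO replicate 2. Cyp2a4 is a near-identical gene, and only uniquely aligned reads were counted, so the level of Cyp2a5 is uncertain.

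Bpifa1, a secreted antimicrobial protein of the airway lining, had 2619, 5570 and 3113 CPM in WT and 6359, 11940 and 7382 CPM in KO, and the groups did not overlap. Its log2 fold change was 1.18 (SE 0.46, adjusted p = 0.462 by edgeR and 0.041 by DESeq2). Those were the 2 genes of the list that DESeq2 called, against 1.21% of all genes. The other genes with an unadjusted p under 0.05 and separate groups, named after their values were seen, were Muc16, a membrane mucin, at a log2 fold change of 0.61, and Cckar, a cholecystokinin receptor, at 0.93. Pigr, the receptor that carries polymeric immunoglobulin across the epithelium, had 689.5, 1666 and 795.8 CPM in WT and 1760, 2330 and 1424 CPM in KO, with overlapping groups and a log2 fold change of 0.81 (adjusted p = 0.52 by edgeR). Bpifb1, a relative of Bpifa1, had a log2 fold change of 0.41.

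Goblet cell genes, the mucus-producing relatives of club cells, gave 8 tested genes. By edgeR 0 were called (0.109% of all genes) and 1 had an unadjusted p under 0.05 (10.3%), namely Tff2, a trefoil peptide, at a log2 fold change of 0.65, named after its values were seen. In 2 of the 8, Tff2 and Foxa3, all KO libraries lay above all WT libraries (8.59% of all genes), and DESeq2 called 0. The median was 0.30, and it was 0.064 without KO replicate 2 and 0.090 with total-count scaling. Clca1, a secreted protein of mucous cells, had 1997, 785.2 and 869.9 CPM in WT and 773.6, 1937 and 1806 CPM in KO. Its highest library was WT replicate 1, unlike the secretory members, and its groups overlapped. Muc5b, a gel-forming mucin, had a log2 fold change of 0.29, and the mucus-associated Fcgbp was at -0.02. The transcription factors Foxa3 and Spdef were at 0.97 and -0.03, both under 1.3 CPM in every library.

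Regulators of ciliogenesis numbered 10, of which 7 were tested and Mcidas, Foxn4 and Cdc20b did not pass the filter. edgeR and DESeq2 called 0 after adjustment. Rfx3, an RFX factor of ciliated cells, was the 1 gene with an unadjusted p under 0.05 and the 1 whose KO libraries all lay above the WT libraries, at 4.06, 2.88 and 3.23 CPM in WT and 4.38, 4.75 and 5.80 CPM in KO (log2 fold change 0.55, SE 0.22, adjusted p = 0.468 by edgeR). These counts of 1 in 7 stand beside 10.3% and 8.59% of all genes. Rfx2, its relative, was at 0.01. Myb, which acts early in multiciliated cells, was at 0.66, and the centriole genes Deup1 and Ccno were at 0.71 and -0.64. The median was 0.40, and it was 0.034 without KO replicate 2.

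Axoneme and motile cilium genes numbered 52 by name, and the 50 found in the files were all tested. Their summed level was 138.4, 272.9 and 182.5 CPM in WT and 236.9, 297.5 and 185.3 CPM in KO, so the groups overlapped. By edgeR and DESeq2 0 were called, and 0 had an unadjusted p under 0.05 by edgeR, where 10.3% of all genes did. The log2 fold change was positive for 37 and negative for 13, with a median of 0.26 that was 0.01 without KO replicate 2. In 1 gene, Cfap43, all KO libraries lay above the WT libraries (log2 fold change 0.44), and in 1, Cfap54, all lay below (-0.77), against 8.59% and 9.20% of all genes. Both encode cilia- and flagella-associated proteins. Cdhr3, a cadherin-related protein of ciliated cells, had 5.56, 32.1 and 9.51 CPM in WT and 21.0, 29.5 and 13.9 CPM in KO, the WT libraries spanning the KO range. Ccdc153 was at 0.19 and Meig1 at 0.80.

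**Figure D4:**
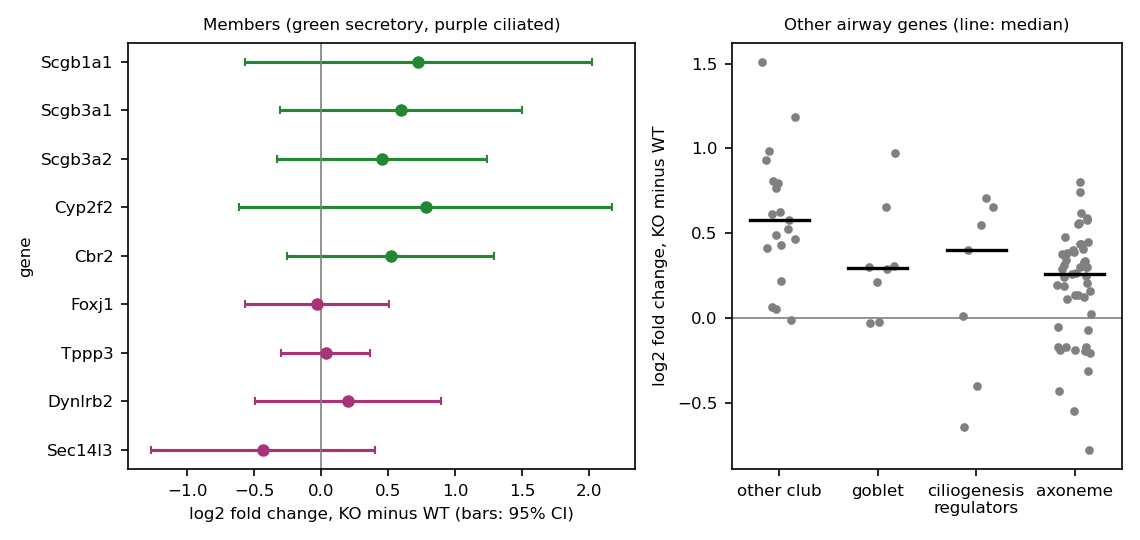
Left, log2 fold change (KO minus WT) of each member with its 95% CI, all of which include 0. Right, log2 fold change of each tested gene in 4 other airway lists (points) with the median (line), at 0.58 for other club genes, 0.30 for goblet genes, 0.40 for ciliogenesis regulators and 0.26 for axoneme genes.

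Markers of the basal and neuroendocrine cells of the airway had low summed levels, which do not measure cell numbers. Basal markers summed to 4.99 to 8.40 CPM in WT and 6.83 to 13.2 CPM in KO, and 4 of 7 passed the filter. Their log2 fold changes were 0.77 for Aqp3, a water channel, 0.26 for the keratin Krt5, 0.85 for the factor Trp63 and -0.08 for Krt17, with 0 called by edgeR or DESeq2. Neuroendocrine markers summed to 9.35 to 12.5 CPM in WT and 7.44 to 9.49 CPM in KO, 3 of 6 passed the filter, and 0 were called by either tool. Uchl1, a neuronal ubiquitin hydrolase, had a log2 fold change of -0.50 (adjusted p = 0.405 by edgeR), while Syp was at -0.10 and Resp18 at 0.62. Only for Uchl1, 1 of the 3 tested, did all KO libraries lie below all WT libraries, as for 9.2% of all genes.

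Finally, the genes whose profiles over the 6 libraries were nearest to each set mean were sought among 11619 genes. Nearest to the secretory mean was Slc4a4, a sodium bicarbonate cotransporter, at an RMS difference of 0.0389, with 6.59, 15.03 and 8.05 CPM in WT and 12.7, 20.2 and 11.97 CPM in KO. Lrrc26 (0.0587), Sgpl1 (0.0638), Pgrmc1 (0.0739) and Slco1a5 (0.0796) followed. These genes shared the high KO replicate 2 and low WT replicate 1 of the secretory mean, which follows from the way they were picked. Nearest to the ciliated mean were Krt18, an epithelial keratin (0.0585), and Wdr78, an axonemal dynein component (0.0651), followed by Plekhb1, Isyna1 and Lsm10. Krt18 had 30.5, 32.6 and 25.7 CPM in WT and 24.5, 39.0 and 24.8 CPM in KO. For Sec14l3 alone, a comparison added after its values had been seen, the nearest were Pard6b (0.122), a polarity protein, Wwc1 (0.122) and Myh14 (0.125), a nonmuscle myosin. Their highest level was in WT replicate 1, which likewise follows from the way they were picked.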

How the data were processed

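For each of the 6 libraries the authors deposited raw counts of reads on every gene. File headers name featureCounts 2.0.0 of Subread on the Ensembl release 84 annotation of GRCm38 (mm10) with reverse-strand counting of uniquely aligned reads, and the submitters' processing notes name STAR 2.5.4b and bcl2fastq 2.18. No table held unassigned reads. All 47729 genes were read, and 47224 had a symbol in GENCODE. Groups were taken from the sample labels.

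Genes were kept by filterByExpr, scaled by TMM and tested with edgeR 4.0.16 (glmQLFit, glmQLFTest) in R 4.3.3, with genotype as the only term and Benjamini-Hochberg adjustment over 14625 genes at 0.05. CPM values use TMM-scaled library sizes (common biological coefficient of variation 0.256), log2 CPM a prior count of 2, and per-kb levels the summed exon length in the deposited tables. With 3 libraries per group an exact permutation test of a single value cannot go below p = 0.1, so none was run. No pair of libraries held equal counts (the lowest chi-square was 40.4 per degree of freedom). The tests were checked on simulated counts. Promoters came from RefSeq tables of GRCm38.p6, and Foxj1, Tppp3, Scgb1a1 and Scgb3a2 had no entry.

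The members and lists were chosen with earlier results of these data known. Besides the airway lists, markers of alveolar type I and II cells, general epithelium, endothelium, mesenchyme and leukocytes were summed. Named were the 9 members, from each airway list the called genes, the 3 with the highest mean CPM and those with the highest and lowest log2 fold change, and the 5 genes (mean log2 CPM above 1) nearest in profile to each set mean. Other cell types' lists are given by their counts. Exceptions are stated. The alternatives were DESeq2 1.42.0, limma-voom (limma 3.58.1), RLE and total-count scaling, mitochondrial genes left out, no filter, a minimum of 10 counts in all libraries, robust estimation of dispersions, a replicate block, omission of each library in turn and, added after seeing the data, the ciliated set without Sec14l3 and the axoneme genes in place of the ciliated set. The TPM values that the study's methods name were not used here.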

Additional observations from a re-analysis of the deposited data

How the results depend on the processing

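The 9 members stayed uncalled in all 15 alternatives. Over all genes, 16 were called, against 187 with DESeq2, 26 with limma-voom, 26 with RLE scaling, 123 with total-count scaling, 152 with no filter, 0 with the replicate block, and 0 (without any 1 KO library) to 791 (without WT replicate 2) with 1 library left out. The share of higher calls was 31.2%, against 47.1% with DESeq2, 49.6% with total-count scaling, 57.2% with no filter and 83.4% without WT replicate 2. Total-count scaling shifted the median of all genes by -0.17. Relative to the median of all genes, the secretory median was 0.56, and 0.63 under that scaling.

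The same replicate number did not pair all the libraries (correlations of deviations of -0.0814, 0.219 and 0.0111 for replicates 1, 2 and 3). WT replicate 2 correlated best with KO replicate 2, but WT replicates 1 and 3 correlated best with KO replicates 3 and 1. The replicate block left 0 genes called, with Fcgbp at 0.019.

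Several log2 fold changes turned sign, most of them near 0 and 1, Ccno, from -0.64. With total-count scaling Tppp3 was at -0.14 and Rfx2 at -0.13, and Rfx2 was at -0.014 with DESeq2, -0.0093 with RLE scaling and -0.0037 with mitochondrial genes left out. With limma-voom Aldh1a1 was at 0.00033 and Fcgbp at 0.041. With 1 library left out, the ranges were -0.23 to 0.15 for Aldh1a1, -0.074 to 0.40 for Ccdc153, -1.07 to 0.033 for Ccno, -0.14 to 0.42 for Dynlrb2, -0.27 to 0.27 for Fcgbp, -0.22 to 0.12 for Foxj1, -1.63 to 0.36 for Krt17, -0.014 to 0.47 for Krt5, -0.10 to 0.16 for Rfx2, -0.28 to 0.32 for Spdef, -0.33 to 0.029 for Syp and -0.10 to 0.11 for Tppp3. The basal median was 0.24 with DESeq2, 0.24 without mitochondrial genes and 0.26 with no filter, against 0.51. The median of the ciliogenesis regulators was 0.034 to 0.45 with 1 library left out. Calls were gained for Bpifa1 with DESeq2, for Cyp2a5 with DESeq2, total-count scaling, no filter and without WT replicate 2, and for Pigr without WT replicate 2 (adjusted p = 0.0479 by edgeR). The cause of these shifts was not tested. Low counts limit Foxa3, Spdef, Ccno, Krt17, Trp63, Resp18, Deup1, Meig1, Cfap54 and Krt5, whose mean was near or under 1 CPM in at least 1 group.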

Other observations

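Other cell types' markers were present in the same libraries and differed in their own ways. The 10 alveolar type II genes all had a positive log2 fold change, with a median of 0.79 and 0 called by edgeR or DESeq2, and in 1 of them, Lyz1, all KO libraries lay above all WT libraries (8.59% of all genes). The 8 alveolar type I genes summed to 1566 to 2385 CPM in WT and 1859 to 2476 CPM in KO. Their median was -0.23, with 0 called. The 10 general epithelial genes had a median of 0.05 and 0 called. The 12 endothelial genes had a median of 0.14 and 0 called, and in 1, Kdr, all KO libraries lay above all WT libraries (8.59% of all genes). The log2 fold change of Kdr was 0.87. The 10 mesenchymal genes had a median of 0.05, with 0 called by edgeR and 1, Tagln, by DESeq2. Their groups did not overlap for 3 genes (17.8% of all genes), with KO below WT for Acta2 and Tagln and above for Msln. Among the 9 tested leukocyte genes the median was 0.52, and 1, the B cell receptor component Cd79a, was called higher in KO by edgeR (0.0342% of all genes). Genes were named in this paragraph after their values had been seen.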
